A study of Mus musculus with 2 samples.

Results

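The genes described here encode the SR proteins (Srsf symbols), their relatives Tra2a and Tra2b, the heterogeneous nuclear ribonucleoproteins (hnRNPs, Hnrnp symbols) and the SF3A, SF3B and U2AF factors that act at the branch point and the 3′ splice site. Members were all protein-coding genes of the GENCODE M21 annotation whose symbol starts with Srsf, Tra2, Hnrnp, Sf3a, Sf3b or U2af, and 45 of the 34745 gene identifiers in the deposited table met this rule. They comprise 11 Srsf, 2 Tra2, 20 Hnrnp, 3 Sf3a, 6 Sf3b and 3 U2af genes. A further 2 rows with such symbols are processed pseudogenes and were not members.

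The samples were primary macrophages grown from bone marrow, labelled C57BL/6, given an antisense oligonucleotide (ASO) by transfection and then stimulated with lipopolysaccharide, a bacterial cell wall component that activates macrophages. One library came from cells given the control ASO (Control-ASO) and the other from cells given the AclyE14-ASO, which is named for Acly, the gene of ATP-citrate lyase. Both groups received lipopolysaccharide, so no untreated macrophages were compared. Neither the dose and time of that treatment nor any pooling of animals was given in the sources used here.

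With 1 library per group there was no test, and every difference below lies between these 2 libraries with no replicate check. The main value is the log2 ratio of FPKM + 1 (FPKM is a count scaled to gene length and library total), AclyE14-ASO over Control-ASO. It was read where the mean of both libraries reached 1 FPKM, and such genes are called measured here. A gene was called higher or lower at 1.5-fold or more, a rule of size. Count ratios are per library total, with exact 95% intervals that cover counting error only. In bulk RNA, fewer cells of a type and less RNA per cell cannot be told apart.

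As background, SR proteins bind exonic enhancers through RNA recognition motifs and use domains rich in arginine and serine to recruit the spliceosome. The hnRNPs coat nascent transcripts and often oppose exon inclusion. U2AF recognises the polypyrimidine tract and the terminal AG of the intron, and SF3A and SF3B, parts of the U2 small nuclear ribonucleoprotein, hold it at the branch point. Many SR and hnRNP genes limit their own output by splicing in an exon that sends the transcript to nonsense-mediated decay.

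Promoter windows are shown for Srsf2 and Srsf11, whose count ratios lay below the 1.5-fold limit. Another window is for Tra2a, which had the highest log2 ratio of FPKM + 1 of the measured members. Each is the 250 bases before the RefSeq transcription start (GRCm38.p6, the assembly also called mm10), all on the minus strand: chr11:116853095-116853344 for Srsf2, chr3:158036607-158036856 for Srsf11 and chr6:49264053-49264302 for Tra2a. Capitals mark any match, on either strand, to 4 short motifs. The first is the letters CCAAT, bound by NF-Y, and the second is TATAAA, the core of the TATA element. The third is GGGCGG, the GC box bound by Sp1, and the last is CCGGAAG, a site of ETS factors. Neighbouring or overlapping matches run together.
Srsf2: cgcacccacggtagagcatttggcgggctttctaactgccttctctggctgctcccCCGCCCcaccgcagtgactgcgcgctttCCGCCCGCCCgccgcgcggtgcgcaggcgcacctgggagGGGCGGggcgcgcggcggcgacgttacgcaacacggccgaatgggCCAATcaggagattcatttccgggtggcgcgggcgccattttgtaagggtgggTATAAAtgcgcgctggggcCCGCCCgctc
Srsf11: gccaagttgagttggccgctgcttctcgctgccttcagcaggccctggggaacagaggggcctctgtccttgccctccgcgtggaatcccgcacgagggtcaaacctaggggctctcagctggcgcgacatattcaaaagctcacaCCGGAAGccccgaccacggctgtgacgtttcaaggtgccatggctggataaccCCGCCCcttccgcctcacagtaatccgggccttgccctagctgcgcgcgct
Tra2a: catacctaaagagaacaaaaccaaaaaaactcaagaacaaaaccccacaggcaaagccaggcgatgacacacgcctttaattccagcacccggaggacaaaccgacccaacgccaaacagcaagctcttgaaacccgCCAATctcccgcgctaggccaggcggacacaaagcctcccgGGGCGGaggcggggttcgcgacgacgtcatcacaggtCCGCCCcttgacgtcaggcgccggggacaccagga
The Srsf2 window held a TATAAA match, a CCAAT match and GC box matches. The Srsf11 window held an ETS match and a GC box match, and the Tra2a window a CCAAT match and GC box matches. Windows were found for 40 of the 45 members, 54 windows in all because some genes have several starts. GGGCGG was in 75.9% of the members' windows and in 32.7% of all 32851 RefSeq windows of that length. CCGGAAG was in 29.6% and 6.91%, CCAAT in 48.1% and 33.8% and TATAAA in 7.41% and 12.4%. The median GC content was 63.8% in the members' windows and 52.4% in all windows, so the members' start regions are GC-rich as a set. The median number of CG pairs was 22.5 and 6. Windows of measured coding genes alone were not compared, so these shares are not shown to be particular to the members. The motif matches describe letters and show no binding.

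Pooled over the members, the median ratio lay slightly below that of all genes, and a few genes stood apart. The Tra2 family, with a median log2 ratio of 0.15, lay above it. Of 41 measured members, 1 (Srsf2) was called lower, 0 were called higher and 40 lay within 1.5-fold. Among all 8658 measured genes, 8.48% were called lower and 7.03% higher, so the members' shares of 2.44% and 0 were under the background. The members' median log2 ratio was -0.21, beside -0.13 for all measured genes, of which 64.9% lay below 0. Of the 41 members, 25 lay below that all-gene median. By family these were 7 of 10 Srsf, 0 of 2 Tra2, 10 of 18 Hnrnp, 2 of 3 Sf3a, 5 of 6 Sf3b and 1 of 2 U2af genes. The members' summed counts were 59800 in Control-ASO and 47684 in AclyE14-ASO, or 0.421% and 0.374% of the library totals.

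**Figure D1:**
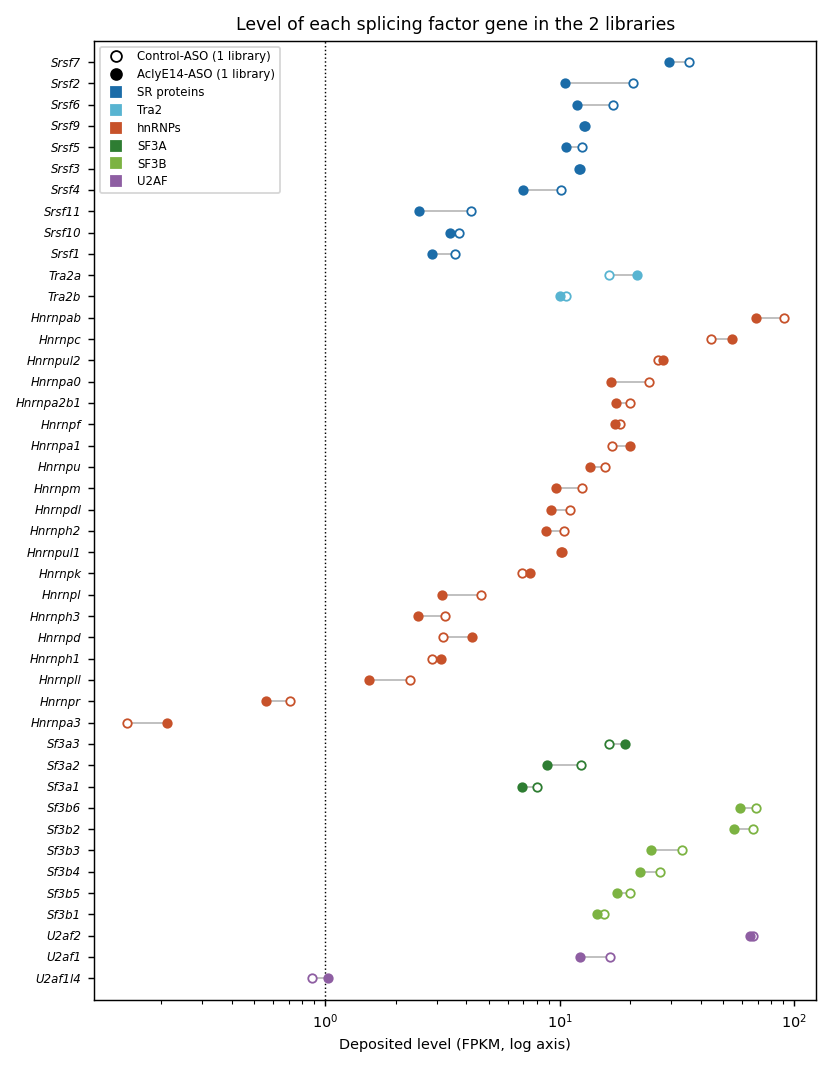
Deposited FPKM (log axis) of the 44 members with a count, by family; open circles are the Control-ASO library, filled circles the AclyE14-ASO library and the dotted line is 1 FPKM. Srsf2 has the widest gap among the SR protein genes, 20.6 against 10.6 FPKM, while Tra2a is the higher way round, 16.3 against 21.4 FPKM.

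The SR protein genes showed the lowest median of the families, -0.27 over 10 measured members. All 10 had a log2 ratio below 0, beside 64.9% of all measured genes. Of these 10, Srsf3, Srsf9 and Srsf10 turned positive when ratios were centred on the median gene. With Tra2a and Tra2b the median over 12 was -0.23. Summed Srsf counts were 11337 and 7785, a ratio of 0.766 (0.744 to 0.788). Srsf2 (ENSMUSG00000034120, chromosome 11, 116849901 to 116853094, minus strand), a general activator of exon inclusion, was at 20.6 FPKM from 1722 counts and 10.6 FPKM from 791 counts. Its log2 ratio was -0.90, lower than that of all but 2.14% of measured genes, and its count ratio was 0.512 (0.470 to 0.557). The whole interval lies below the 1.5-fold limit. Srsf2 made up 15.2% of Srsf counts in Control-ASO and 10.2% in AclyE14-ASO.

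Srsf2 shares exonic sequence with Mfsd11 and Mettl23 on the opposite strand, and use of the strand in counting was not stated in any source used here. Together these neighbours had 427 and 361 counts, a ratio of 0.943 (0.817 to 1.09). Summed with both, the Srsf2 ratio was 0.598 (0.556 to 0.642), still below the limit.

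Srsf11 (ENSMUSG00000055436, chromosome 3, 158010473 to 158036639, minus strand), an SR protein of the spliceosome, was at 4.18 and 2.50 FPKM from 1041 and 560 counts. Its count ratio of 0.600 (0.540 to 0.665) passed the 1.5-fold limit, but its log2 ratio of FPKM + 1 was -0.56, just inside it, because the pseudocount weighs on a low gene. By count ratio, 2 of 41 members were therefore lower and 0 higher, against 14.4% and 9.38% of all genes.

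Srsf4 and Srsf6, paralogous SR proteins, followed. Srsf4 was at 10.2 and 6.95 FPKM (ratio 0.684, 0.603 to 0.775) and Srsf6 at 16.9 and 11.9 FPKM (ratio 0.700, 0.649 to 0.755). Both intervals span the 1.5-fold limit and exclude equality. Srsf7, the SR gene with the highest deposited FPKM, was at 35.8 and 29.3 FPKM, and Srsf1, the founding splicing factor of the family, at 3.60 and 2.87 FPKM. Srsf5 had the most counts of the family, 1898 and 1458. Srsf3 (1582 and 1412 counts, ratio 0.995, 0.925 to 1.07) and Srsf9 (369 and 328 counts, ratio 0.991, 0.851 to 1.15) were near equality, and Srsf10, at 550 and 451 counts, had an interval that includes 1 (0.805 to 1.04). Srsf12 had 0 counts in both libraries. The SR genes thus ranged from Srsf3 near 1 to Srsf2 near 0.512, so the family median does not describe each gene.

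The Tra2 genes, sequence-specific activators that cooperate with SR proteins, both had ratios above the all-gene median. Tra2a (ENSMUSG00000029817, chromosome 6, 49243924 to 49264033, minus strand) was at 16.3 and 21.4 FPKM from 2056 and 2416 counts. Its log2 ratio of 0.37 was the highest of the measured members, with a count ratio of 1.31 (1.23 to 1.39), within 1.5-fold. Tra2b was at 10.6 and 10.1 FPKM from 1127 and 959 counts, with a ratio of 0.949 (0.869 to 1.03). The Tra2a share of Tra2 counts was 64.6% and 71.6%.

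**Figure D2:**
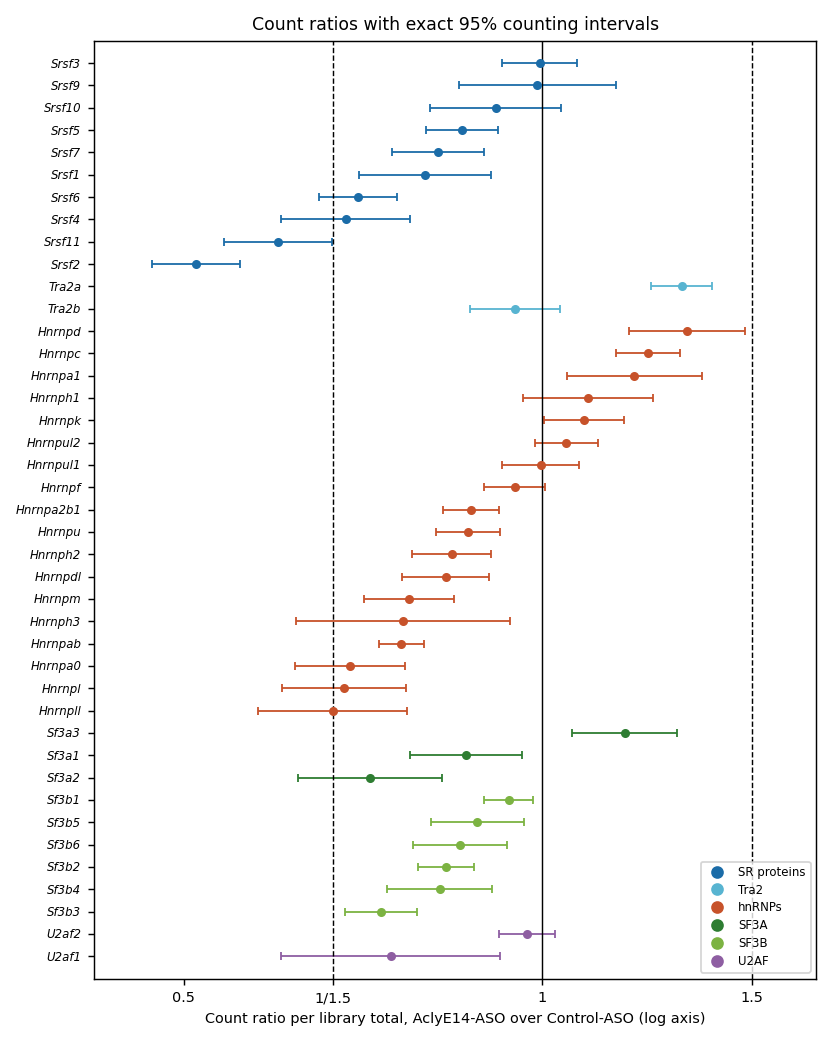
Count ratio per library total (AclyE14-ASO over Control-ASO, log axis) of the 41 measured members with exact 95% counting intervals; the solid line is equality and dashed lines are 1.5-fold. On library totals, only Srsf2 (0.512) and Srsf11 (0.600) have intervals wholly beyond a dashed line. Those of Hnrnpd, Tra2a, Hnrnpc, Hnrnpa1, Sf3a3 and Hnrnpk lie wholly above 1. Intervals were not recomputed under other scalings of the libraries.

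The hnRNP genes spread to both sides. Of 18 measured, 12 had a log2 ratio below 0 (Hnrnpf and Hnrnpul1 turned positive when centred) and 6 above, 0 were called, and the median was -0.19. Among all measured genes 64.9% lay below 0, 8.48% were called lower and 7.03% higher. Hnrnpab, which encodes a protein of RNA processing and transport, was the most abundant member, at 90.3 and 68.7 FPKM from 4924 and 3364 counts (ratio 0.762, 0.729 to 0.796). Hnrnpa0, a protein that binds AU-rich elements and whose gene has 1 annotated transcript, had the lowest log2 ratio of the family, -0.51, with 24.0 and 16.5 FPKM (ratio 0.689, 0.619 to 0.766). Hnrnpl (729 and 446 counts, ratio 0.682) and its paralog Hnrnpll, known for Ptprc exon exclusion in lymphocytes (515 and 308 counts, ratio 0.667), were also on the low side. The intervals of Hnrnpa0, Hnrnpl and Hnrnpll all spanned the 1.5-fold limit.

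On the other side lay Hnrnpd, Hnrnpc and Hnrnpa1. Hnrnpd (AUF1), which binds AU-rich elements of cytokine transcripts, was at 3.19 and 4.23 FPKM from 573 and 680 counts (ratio 1.32, 1.18 to 1.48). Hnrnpc, which binds uridine tracts, was at 44.2 and 54.2 FPKM (ratio 1.23, 1.15 to 1.31). Hnrnpa1, the best known antagonist of Srsf1 in splice site choice, was at 16.7 and 19.99 FPKM (ratio 1.20, 1.05 to 1.36). Its relative Hnrnpa2b1 was at 19.9 and 17.4 FPKM (ratio 0.871, 0.825 to 0.920). The scaffold protein gene Hnrnpu was at 15.6 and 13.5 FPKM, and Hnrnpul1 (10.2 FPKM in both) and Hnrnpf (18.2 and 17.2 FPKM) had intervals that include 1. Hnrnpul2, a relative of Hnrnpu, was at 26.4 and 27.7 FPKM, and its interval also included 1 (0.986 to 1.11). The Hnrnph genes, whose proteins bind guanosine runs, did not share a direction. Hnrnph1 was at 2.86 and 3.13 FPKM (ratio 1.09, 0.964 to 1.24), Hnrnph2 at 10.4 and 8.74 FPKM (ratio 0.839, 0.777 to 0.906) and Hnrnph3 at 3.25 and 2.48 FPKM (ratio 0.764, 0.620 to 0.939). Hnrnpdl, a paralog of Hnrnpd, was at 11.1 and 9.19 FPKM (ratio 0.830, 0.763 to 0.902), below 1 where Hnrnpd was above it. Hnrnpm, at 12.5 and 9.67 FPKM, overlaps March2 on its own strand, and their summed ratio of 0.739 (0.687 to 0.796) was close to the 0.773 of Hnrnpm alone.

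Near-identical copies touch the values of several hnRNP genes. Transcripts of other genes in the table that matched a member over at least 200 bases at 95% identity or more were found for Hnrnpa1, Hnrnpa3, Hnrnpf, Hnrnpk and Srsf3. The strongest cases are shown as 80-base coding stretches, numbered from the first base of the start codon, with the differing bases in capitals: bases 529 to 608 of a Hnrnpk transcript beside the processed pseudogene Gm7964 (chromosome 7, 83755904 to 83757281, plus strand), and bases 186 to 265 of a Hnrnpa3 transcript beside Gm6793 (chromosome 8, 112013433 to 112015036, minus strand), a gene with 1 exon.
Hnrnpk: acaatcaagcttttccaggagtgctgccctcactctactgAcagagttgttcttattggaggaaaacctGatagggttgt
Gm7964: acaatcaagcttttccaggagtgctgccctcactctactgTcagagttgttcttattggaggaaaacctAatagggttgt
Hnrnpa3: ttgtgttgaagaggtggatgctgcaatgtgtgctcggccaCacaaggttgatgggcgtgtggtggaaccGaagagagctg
Gm6793: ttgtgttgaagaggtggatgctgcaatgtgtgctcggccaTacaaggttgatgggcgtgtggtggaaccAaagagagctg
Only 10 of 1377 aligned coding bases differ between Hnrnpk and Gm7964, and 7 of 1053 between Hnrnpa3 and Gm6793. The rule for reads that match both is not known from the sources used here. Hnrnpk, which binds cytidine-rich RNA, had 1338 and 1301 counts (ratio 1.08, 1.004 to 1.17), while Gm7964 was listed with 1773 and 1073 (ratio 0.675, 0.625 to 0.728). The gene held 43.0% of the summed Control-ASO counts. The sum of both had a ratio of 0.851 (0.806 to 0.898), on the other side of 1 from Hnrnpk alone, so the direction for Hnrnpk depends on where these reads belong.

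Hnrnpa3, a partner of Hnrnpa2b1, had 15 and 20 counts and lay under 1 FPKM. Gm6793 had 648 and 347 counts, so Hnrnpa3 held 2.26% of the summed Control-ASO counts. The sum had a ratio of 0.617 (0.542 to 0.702), past the 1.5-fold limit by count ratio, with an interval that spans it. On the log2 ratio of FPKM + 1 the sum was not called. The low level listed for Hnrnpa3 is uncertain because of this copy. For Hnrnpa1, adding Gm7729 and Hnrnpa1l2-ps (176 and 144 counts together) moved the ratio to 1.12, and its counting interval, from 0.998 to 1.249, then included 1. For Srsf3 the copy Gm12355 added 28 and 18 counts.

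**Figure D3:**
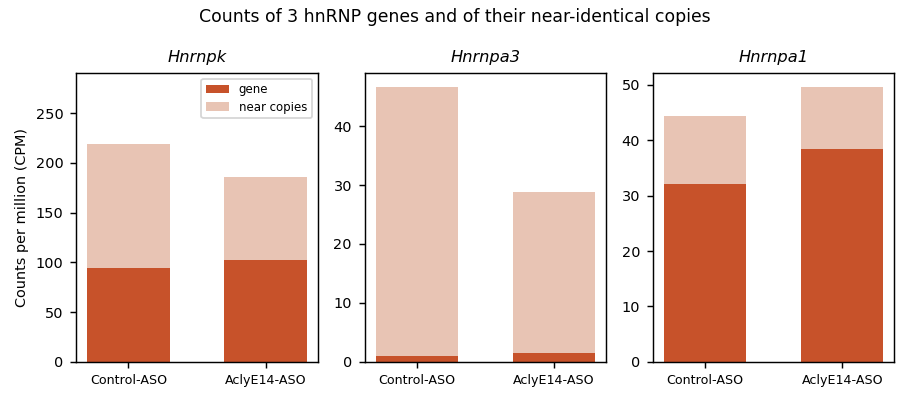
Counts scaled to library totals (CPM) of Hnrnpk, Hnrnpa3 and Hnrnpa1 (dark) with their near-identical copies stacked on top (light), 1 bar a library. For Hnrnpa3 nearly all counts lie with the copies, and for Hnrnpk the gene's own part is slightly higher in AclyE14-ASO while the stack is lower.

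The U2 factors had a median of -0.23 over 11 measured members, with 10 below 0, 1 above and 0 called, and Sf3b1 and U2af2 turned positive when centred. Of the 11, 8 lay below the all-gene median of -0.13. All 6 SF3B genes had count intervals below 1 relative to library totals, and their summed counts were 11855 and 9065 (ratio 0.852, 0.829 to 0.876). Against the all-gene median log2 ratio, 5 of these 6 lay below it and Sf3b1 lay above it. Sf3b1, which encodes the subunit that contacts the branch point, was nearest to equality in this family, at 15.4 and 14.4 FPKM from 3668 and 3083 counts (ratio 0.937, 0.893 to 0.983). Sf3b3, a scaffold subunit, was the lowest, at 33.4 and 24.5 FPKM (ratio 0.732, 0.683 to 0.784). Sf3b6, the branch-point-contacting p14 subunit, had the highest deposited FPKM of the SF3B genes, 68.8 and 58.7. Sf3b2 was at 66.7 and 55.4 FPKM, Sf3b4 at 26.9 and 22.1 FPKM and Sf3b5 at 19.9 and 17.6 FPKM.

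SF3A, a complex of unlike subunits, had subunit genes on both sides of 1. Sf3a3 was at 16.3 and 19.1 FPKM (ratio 1.17, 1.06 to 1.299), Sf3a1 at 7.99 and 6.90 FPKM (ratio 0.863, 0.774 to 0.962) and Sf3a2 at 12.3 and 8.82 FPKM (ratio 0.717, 0.623 to 0.824). The share of SF3A counts from Sf3a3 was 36.5% and 45.6%. Sf3a2 overlaps Plekhj1 on the opposite strand, which had 521 and 249 counts (ratio 0.533, 0.456 to 0.621), nearly as many as the 524 and 337 of Sf3a2. Summed, they had a ratio of 0.625 (0.564 to 0.692), so if counting ignored the strand the 2 genes cannot be told apart in the shared part.

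U2af2, the large U2AF subunit that binds the polypyrimidine tract, was at 66.9 and 65.0 FPKM (ratio 0.971, 0.921 to 1.025). U2af1, the small subunit that reads the AG, had only 227 and 152 counts, 16.4 and 12.2 FPKM, and its ratio of 0.747 (0.604 to 0.921) is among the least precise of the measured members. U2af1l4, a paralog of U2af1, had 183 and 191 counts (ratio 1.16, 0.945 to 1.43), but its deposited 0.883 and 1.03 FPKM kept it just under the limit for measured genes. The members outside that limit were U2af1l4, Hnrnpr (0.708 and 0.559 FPKM), Hnrnpa3 and Srsf12, and the lowest inside it was Hnrnpll at 2.31 and 1.54 FPKM.

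The order of levels between genes depends on the gene length behind FPKM. For 28 of the 44 members with a count, the length implied by the deposited FPKM and counts matched, within 2%, the summed length of all distinct annotated exons, in which overlapping exons of different transcripts count repeatedly. It was longer than the merged exons for 30 members and shorter for 12, from 0.375 to 8.80 times. The members have a median of 7 annotated transcripts, against 5 for the 8300 measured coding genes. U2af1l4, with 34 transcripts, was the extreme, and on merged exons it was at 7.77 and 9.05 FPKM. On merged exons Srsf2 was at 41.0 and 20.97 FPKM, the highest SR gene in Control-ASO, while Srsf5 (33.5 and 28.7 FPKM) was highest in AclyE14-ASO. Srsf7, first on the deposited scale, was at 23.0 and 18.8 FPKM. Hnrnpab led on both scales, with 125 and 94.8 FPKM on merged exons, and Hnrnpf (56.7 and 53.7 FPKM) and U2af2 (49.6 and 48.2 FPKM) followed in Control-ASO.

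**Figure D4:**
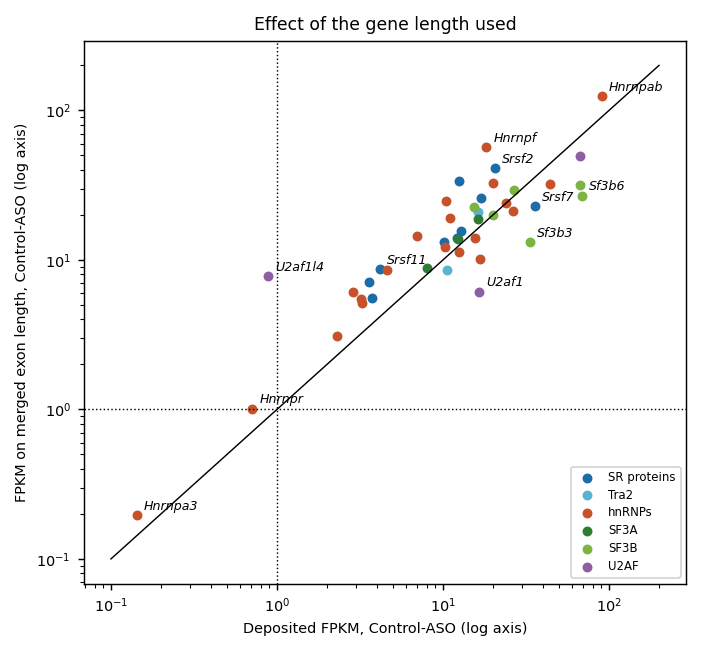
Control-ASO level of the 44 members with a count, as deposited FPKM (x axis) and as FPKM on merged exon length (y axis), both log axes; the solid line is equality and dotted lines mark 1 FPKM. U2af1l4 moves from 0.883 to 7.77 FPKM and Srsf2 from 20.6 to 41.0, while U2af1 and Sf3b6 lie below the line.

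Count ratios are untouched by the length, but the pseudocount is not. On merged exons Srsf11 was at 8.67 and 5.20 FPKM with a log2 ratio of -0.64 and was called lower, as was Srsf2 at -0.93. That made 2 lower and 0 higher of 42 measured members, against 8.99% and 7.44% of 9001 genes.

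The annotation gives a property that the choice of members did not use. At least 1 transcript of the nonsense-mediated decay class is annotated for 23 of the 41 measured members (56.1%), beside 28.8% of measured coding genes. By family these were 11 of the 12 SR and Tra2 genes, 9 of 18 hnRNP genes and 3 of 11 U2 factors. A retained-intron transcript is annotated for 31 of the 41 (75.6%), beside 60.8% of coding genes. These shares were not adjusted for the number of annotated transcripts, a median of 7 for the members and 5 for measured coding genes. The median log2 ratio was -0.21 for the 23 members with a decay transcript and -0.21 for the 18 without. Gene-level counts do not resolve which of these transcripts were made.

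The rest of the splicing machinery, 132 measured genes of 161 listed, had 4 genes lower, 1 higher and a median of -0.22. These shares of 3.03% and 0.758% were also under the 8.48% and 7.03% of all genes. Overlaps and near copies were examined for the members only. Pcbp1, an intronless hnRNP E gene that binds cytidine-rich RNA, was at 152 and 71.1 FPKM (ratio 0.468, 0.441 to 0.496), the lowest of the list genes called. Rnps1, an SR-related activator found in the exon junction complex, was at 47.0 and 29.0 FPKM (ratio 0.618, 0.563 to 0.678). The second-step factor Prpf18 was at 5.43 and 2.94 FPKM (ratio 0.542, 0.470 to 0.624), and Pdcd7 of the minor spliceosome at 4.76 and 2.68 FPKM. Snrnp25, also of the minor spliceosome, was the 1 gene called higher on this scale, at 3.19 and 6.32 FPKM (ratio 1.98, 1.54 to 2.55).

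The count for these lists depends on the scale. On merged exons 7 of 137 measured genes were lower (5.11%) and 3 higher (2.19%), against 8.99% and 7.44% of all genes. Htatsf1, Celf1 and Smg5 joined the lower genes, and Mbnl1 and Rbfox2 the higher ones. Mbnl1, a regulator of developmental exon choice, had 197 and 500 counts (ratio 2.83, 2.39 to 3.35), and Rbfox2, an RNA-binding regulator of alternative exons, had 89 and 187 counts (ratio 2.34, 1.81 to 3.05). Both had a mean under 1 on the deposited FPKM scale, which kept them out of the main tally. By count ratio 13 of 132 were lower (9.85%) and 1 higher (0.758%), against 14.4% and 9.38%. The lower genes then also included Tial1 (ratio 0.624), Rbm4 (0.569), Rbm10 and Rbm47 (0.644) among the other splicing regulators, Smg5 (0.621) and Smg8 among the decay factors, and Zrsr1 of the minor spliceosome.

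By group on the main scale, 0 genes were called among 8 measured U1 genes (median -0.08), 7 of the Sm core (0.02), 15 U2 and branch point partners (-0.15), 16 of the tri-snRNP (-0.24) and 8 SR protein kinases and importer genes (-0.21). Likewise 0 were called among 12 other alternative splicing regulators (-0.44) and 9 nonsense-mediated decay factors (-0.29). On this scale 8.48% of all measured genes were lower and 7.03% higher. By count ratio 4 of those 12 regulators (33.3%) and 2 of those 9 decay factors (22.2%) were lower and 0 higher, against 14.4% and 9.38% of all genes. In the remaining groups, 11 hnRNP proteins under other symbols had a median of -0.31, 17 SR-related genes -0.17, 20 Prp19 complex and step factors -0.17 and 9 minor spliceosome genes -0.20. The Sm core median was the 1 above 0, but its genes lay on both sides. Snrpb (count ratio 0.775), Snrpd1 (0.801) and Snrpd3 (0.822) had intervals below 1. Those of Snrpd2 (1.18), Snrpf (1.17) and Snrpg (1.39) were above 1, and that of Snrpe included 1. The summed level of the listed Sm genes was 183 and 163 FPKM.

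Values of the whole libraries are given beside these ratios. The totals were 14215397 counts in Control-ASO and 12751076 in AclyE14-ASO, and measured members had 152 to 4924 counts a library. Acly was at 13.3 and 7.35 FPKM (log2 ratio -0.78, count ratio 0.553, 0.506 to 0.603). Macrophage markers such as Adgre1 (84.8 and 67.4 FPKM) and Csf1r (64.7 and 50.7 FPKM) were present in both libraries, and of 11 measured macrophage markers 5 were higher, Itgam most (9.12 and 43.2 FPKM), and 1, Cd68, lower. All 12 measured fibroblast and stromal markers of 16 listed were higher in AclyE14-ASO, with summed levels of 73.5 and 369 FPKM, and 0 of the 16 were at 0 in both. Of 10 measured cell cycle genes of 16 listed, 5 were higher and 0 lower (summed 105 and 115 FPKM). Of 8 neutrophil markers, S100a9, Ly6g, Elane and Camp had 0 counts in both, while S100a8 had 276 and 520 counts (ratio 2.10, 1.81 to 2.44) and Csf3r 327 and 463 (ratio 1.58, 1.37 to 1.82), with summed levels of 24.0 and 48.1 FPKM. Of 7 lymphocyte markers, Cd3e and Ncr1 had 0 counts in both, while Lck had 216 and 315 counts (ratio 1.63, 1.36 to 1.94), with summed levels of 3.59 and 5.30 FPKM. Of 9 erythroid, megakaryocyte and mast cell markers 5 were at 0 in both, and Pf4 had 25 and 71 counts. Of 5 endothelial markers 2 were at 0 in both. The 2 measured ones differed: Kdr was lower (11.1 and 5.49 FPKM), while Cdh5 was past 1.5-fold higher by count ratio but not on either FPKM scale. Transcripts of the mitochondrial genome held 1.40% and 1.11% of counts. The part of these differences in the splicing factor ratios was not tested.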

How the data were processed

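Total RNA of 2 libraries, 1 per ASO, was sequenced after mRNA capture. Kits for stranded total RNA and for mRNA are both named, per the labels' protocols. The deposited table holds raw counts and FPKM per gene, per the file headers. The submitters' processing notes list HISAT2, StringTie 1.3.0, edgeR and mm10 with no role. The deposited FPKM per count differed between libraries by 1.1148 to 1.1149 over genes with more than 20 counts, the ratio of the count totals (1.115), so FPKM was scaled by the authors to summed counts and 1 length per gene.

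Symbols, coordinates, exons and transcript classes came from GENCODE M21 (GRCm38) for 34344 of 34745 identifiers. Identifiers without a symbol held 0.164% and 0.123% of counts and stayed in the totals. Among 8015 genes with over 100 Control-ASO counts, the implied FPKM length matched distinct exons within 2% for 68.6% and merged exons for 8.60%. Log2 ratios used a pseudocount of 1 FPKM and a mean of at least 1 FPKM. Intervals are exact (Clopper-Pearson) and conditional on the summed count. They cover counting error only, since 1 library per group gives no variation between samples. Reads here carry no molecular identifiers, so the counts are of reads and not of molecules. Near copies were found with blastn 2.17.0. A further 61 matching gene pairs involve a copy that is not a row of the table and were not analysed here. Promoter windows are from RefSeq. Python 3.11.15, NumPy 2.4.6, pandas 2.3.3, SciPy 1.17.1 and, for TMM, edgeR 4.0.16 in R 4.3.3 were used, and the calculations were tested on simulated counts.

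The members and lists were chosen with earlier results of these data known. Named genes were Acly, members past 1.5-fold or within 0.1 (log2) of it, the highest, lowest and most abundant member of each family, genes called in the pathway lists, and overlapping genes or copies. The other members, some markers and list genes called on another scale were named after their values were seen. The most abundant genes of the pathway lists are not all given.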

Additional observations from a re-analysis of the deposited data

How the results depend on the processing

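Srsf2 was the 1 member called lower, and 0 were called higher, under a pseudocount of 5 FPKM, no filter, a mean of at least 5 FPKM, centring on the median gene, TMM scaling, removal of the length and GC trend, and summing with same-strand overlapping genes or near copies. With a pseudocount of 0.1 FPKM, by count ratio and on merged exons, 2 were lower, Srsf2 and Srsf11. Summing with opposite-strand overlapping genes also gave 2, Srsf2 and Sf3a2. At a looser limit of 0.32 on the log2 scale, 12 of 41 were lower and 1, Tra2a, higher, against 26.7% and 14.2% of all genes. The members' lower share was thus not under the background at that limit. At 2-fold 0 were lower, against 1.55%. Merged exon length and opposite-strand sums were chosen after seeing the data.

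Centring shifts every log2 ratio by 0.13, since the median gene with a mean of at least 5 FPKM was at -0.13, and moved the medians to -0.10 for SR and Tra2 genes and -0.062 for hnRNPs. It also changed the balance over all genes from 8.48% lower and 7.03% higher to 4.69% and 9.83%. Over the alternatives the medians of the pooled groups stayed below 0. They ran from -0.26 to -0.10 for SR and Tra2 genes, -0.22 to -0.06 for hnRNPs and -0.25 to -0.10 for the U2 factors. The Srsf, Tra2, Sf3a, Sf3b and U2af families were not each followed, and Tra2a and Tra2b alone had a main-scale median of 0.15. Acly was at -0.57 with a pseudocount of 5 FPKM and -0.65 when centred. Of the 41 measured members, 9 changed sign under some alternative: Hnrnpf, Hnrnpk, Hnrnpul1, Sf3b1, Srsf3, Srsf9, Srsf10, Tra2b and U2af2. The counting intervals were taken on library totals only. Their positions against 1 and the 1.5-fold limit depend on that scaling and were not recomputed with TMM or centring. No paired analysis was possible because each group has 1 library.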
